A study of Homo sapiens with 23 samples.

Results

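The cyclins, the cyclin-dependent kinases (CDKs), the CDK inhibitors, the E2F transcription factors with their pocket protein partners, and the enzymes that set the phosphorylation of the CDKs were followed through the differentiation of human embryonic stem cells into cardiomyocytes. The set held 37 genes of the 57477 in the deposited count table and was taken by gene symbol. All 37 were in the table, and all 37 were among the 22245 genes with enough counts to be tested. H1-hESC, an established human embryonic stem cell line, was differentiated in a directed protocol, and total RNA was sequenced on 8 days in 23 libraries. The labels give Stem Cell for day 0, Mesendoderm for day 1, Cardiac mesoderm for day 3, Cardiac progenitors for days 5 and 7 and Cardiomyocyte for days 10, 14 and 28. Each day had 3 libraries except day 10, which had 2. The genotype was WT in every library and all groups share the 1 cell line. The labels keep the stem cells in mTesR1 medium and the cardiomyocytes in RPMI with insulin, and the agents that drove the steps between them are not given in the sources used here. The labels do not say whether replicates were separate cultures, so p-values measure the spread between these libraries, which may be technical.

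A cyclin binds a CDK and switches it on. D-type cyclins with CDK4 or CDK6 begin the phosphorylation of the pocket proteins RB1, RBL1 and RBL2, which releases E2F factors to transcribe the genes of DNA replication, and A-, E- and B-type cyclins with CDK2 or CDK1 drive S phase and mitosis. INK4 inhibitors block CDK4 and CDK6, CIP/KIP inhibitors bind cyclin-CDK complexes more broadly, WEE1 and PKMYT1 add inhibitory phosphates to CDKs, and CDC25 phosphatases remove them. Embryonic stem cells cycle rapidly with a short G1 phase, and heart muscle cells largely leave the cell cycle as they mature.

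Values are CPM, the read count of a gene over the size of its library, scaled between libraries with the trimmed mean of M-values (TMM). A log2 change is that of the model fitted to the counts, given as ± 1 standard error (SE). Libraries held 4330334 to 22089595 counts in genes, and the 37 members took between 0.148% and 0.310% of them. Libraries of 1 day correlated at 0.968 to 0.993 across genes, except on day 5, where the 3 pairs correlated at 0.907 to 0.956 and where the shallowest library, replicate 3, lies. The labels of days 28 and 0 were checked against defining markers. MYH7, the slow cardiac myosin heavy chain, ranged over 12738 to 21337 CPM at day 28 against 0.0577 to 0.109 CPM at day 0, and the pluripotency factor POU5F1 over 0.0739 to 0.464 CPM at day 28 against 1547 to 1735 CPM at day 0. Exons of several members overlap a gene on the other strand, and the strand setting of the read counting is not given in the sources used here. Values of CCNE2 (overlapped by INTS8), CDC25C (FAM53C), CDK2 (PMEL), CCNA2 (EXOSC9), CDKN2A (CDKN2B-AS1), RBL2 (AKTIP), PKMYT1 (PAQR4), E2F5 (RBIS), CDK4 (TSPAN31) and CCND1 (LTO1) are uncertain to that extent. EXOSC9 had a mean of 30.9 CPM at day 28 against 87.6 at day 0, PAQR4 1.94 against 9.96 and PMEL 1.54 against 95.9. INTS8 (65.5 against 108), FAM53C (71.6 against 94.2) and RBIS (11.4 against 14.2) also had lower means, as did the members they overlap. AKTIP (36.5 against 15.3) and CDKN2B-AS1 (3.15 against 0.0192) had higher means, as did their members. TSPAN31 (25.0 against 16.4) and LTO1 (11.8 against 15.3) moved against theirs. The part of these genes in member values was not tested. In bulk RNA, fewer cells of a type and less RNA per cell cannot be told apart.

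The level of 36 of the 37 members depended on the day, against 88.4% of all genes tested (edgeR quasi-likelihood F-test over all days, Benjamini-Hochberg adjusted p under 0.05, the threshold for every call). The exception was E2F6, at adjusted p = 0.0655. The highest mean fell on day 0 for 8 members, day 1 for 10, day 3 for 1, day 5 for 4, day 10 for 2, day 14 for 1 and day 28 for 11. The lowest mean fell on day 0 for 6 members, day 1 for 4, days 3 and 7 for 3 each, day 14 for 15 and day 28 for 6. Most members were therefore at their highest either in the stem cell and mesendoderm libraries or in the last sample, and the largest group was at its lowest at day 14.

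**Figure D1:**
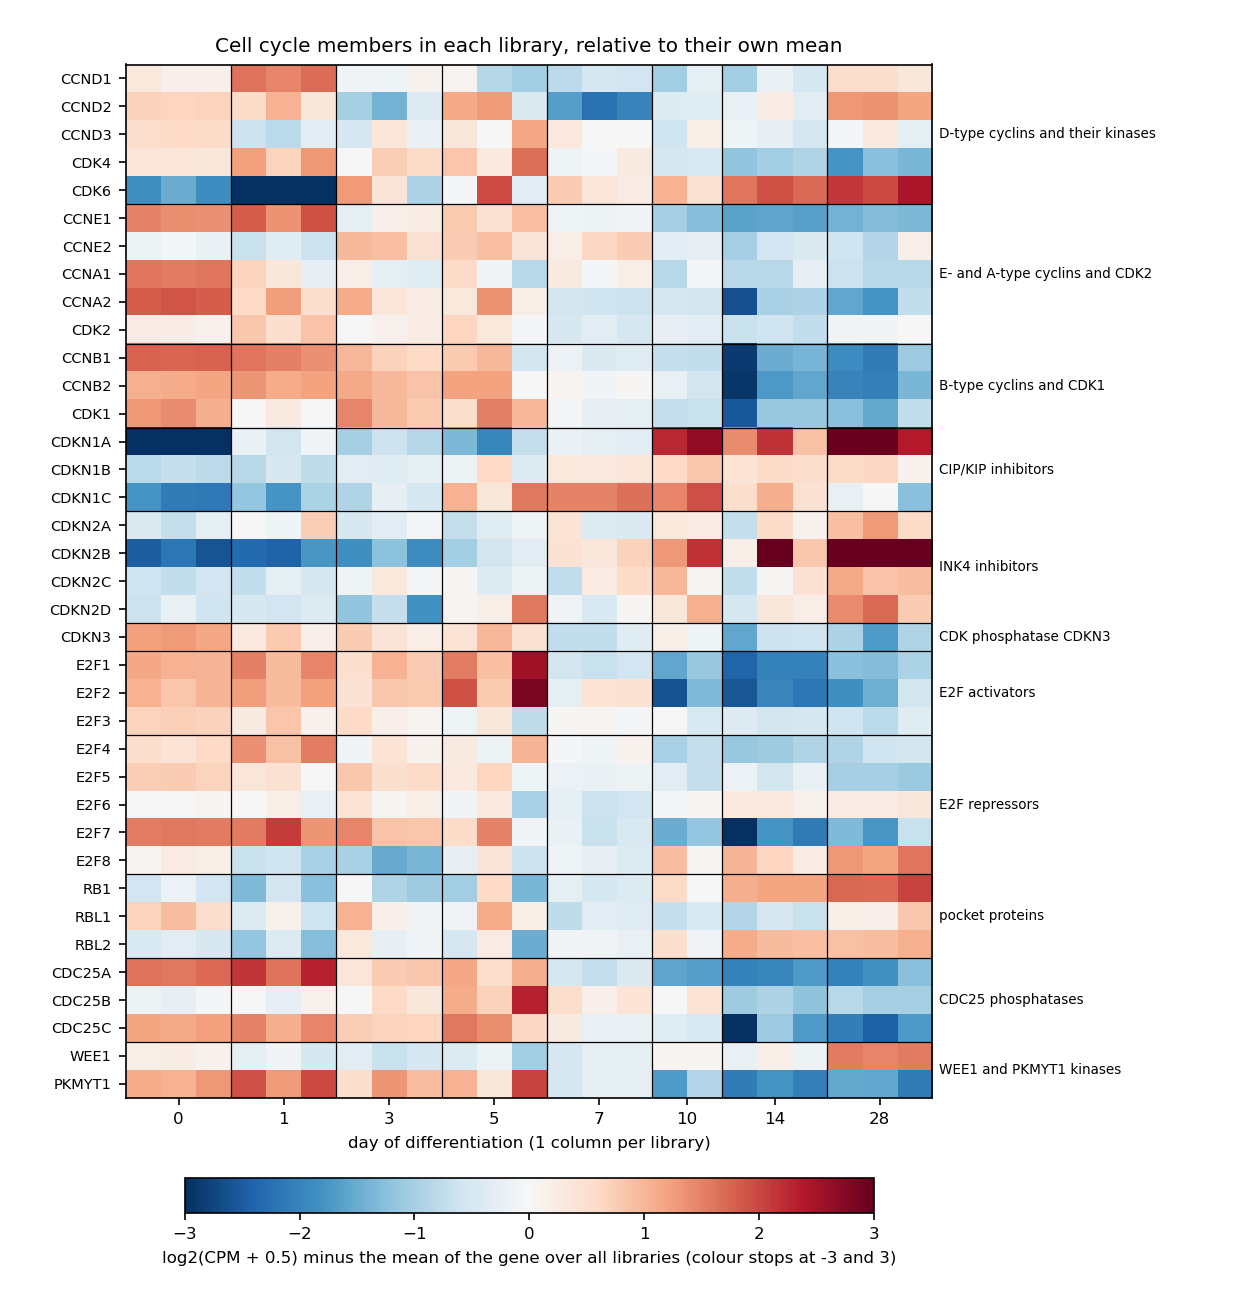
Level of each of the 37 members (rows, grouped by role) in each of the 23 libraries (columns, by day), as log2(CPM + 0.5) minus the mean of the gene, with colours that stop at -3 and 3. The rows of CCNA2, CCNB1, CCNB2, CDK1, CDC25A and E2F1 are above their means at days 0 and 1 and below them at days 14 and 28, while CDKN1A, CDKN2B, CDK6 and RB1 have their highest values at day 28.

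The end of the time course was first set against its start. At day 28, 18 of the 37 members were lower than at day 0, which is 48.6% of them against 28.4% of all genes tested, and 12 were higher, which is 32.4% against 32.1% of all genes. The share that rose was thus close to that of all genes. The median log2 change was -0.58 over the members and 0.09 over all genes tested. Both B-type cyclins, CDK1, all 3 activator E2Fs and all 3 CDC25 phosphatases fell, while all 3 CIP/KIP and all 4 INK4 inhibitors and the pocket proteins RB1 and RBL2 rose. The libraries of both days did not overlap for 35 of the 37 members, and they did not overlap for 76.0% of all genes tested. Removing any 1 library of these days left 11 or 12 members higher and 17 or 18 lower. The proliferation markers of the same libraries were also lower, and the summed level of these 11 genes (such as MKI67, TOP2A and the MCM helicase subunits) was 631 to 1122 CPM at day 28 against 4745 to 4859.9 CPM at day 0. Markers of other cells also differed, with 6 of 6 fibroblast and stroma markers higher and their sum at 2788 to 3236 CPM at day 28 against 36.1 to 46.4 CPM at day 0, and the part of this in the member values was not tested.

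**Figure D2:**
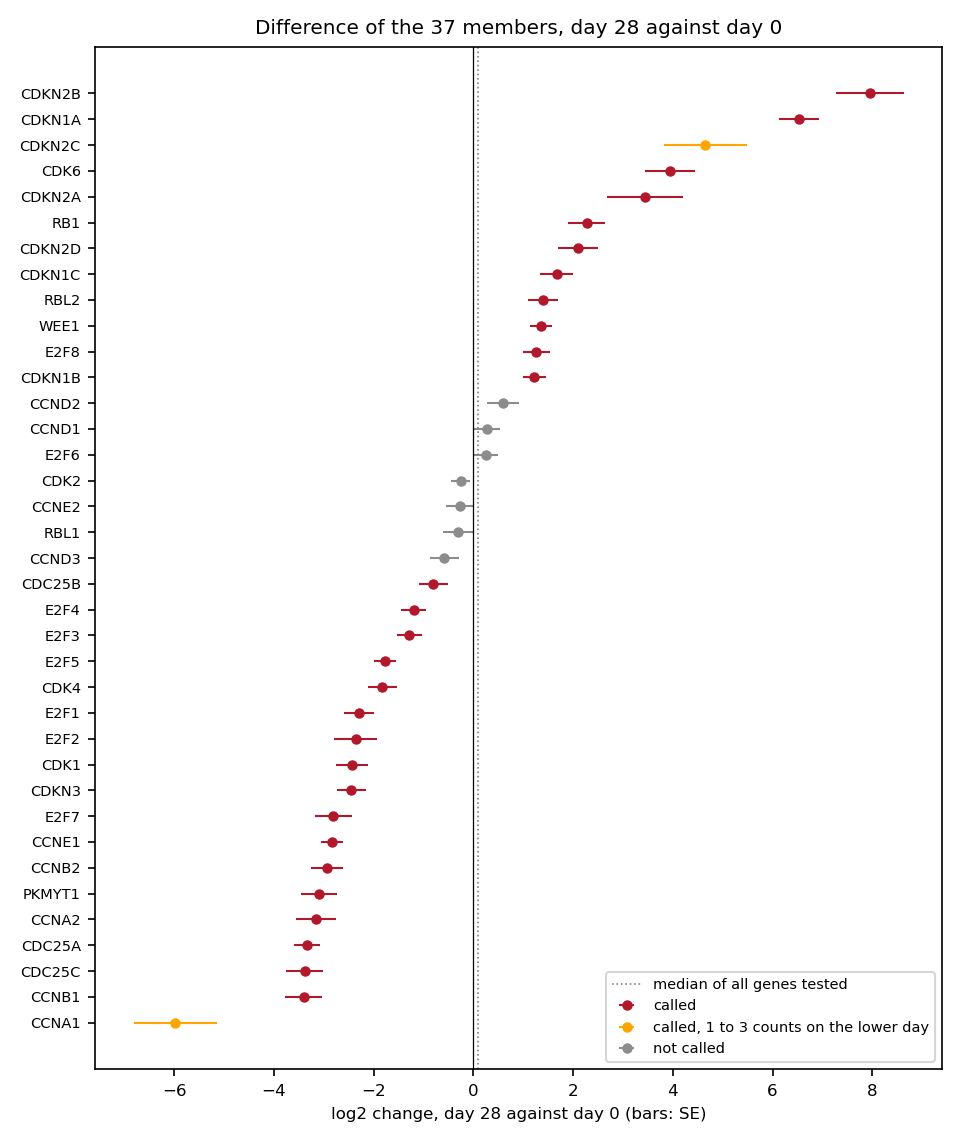
Log2 change (horizontal axis) of each of the 37 members at day 28 against day 0, with bars of 1 SE, in red where called, in orange where called with 1 to 3 counts on the lower day and in grey where not called; the dotted line is the median of all genes tested, 0.09. CDKN2B and CDKN1A lie farthest to the right, with 7.95 and 6.53, and CCNB1 has a change of -3.41.

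Between neighbouring days the members moved in both directions. At day 1 against day 0, 6 members rose and 8 fell, which is 16.2% and 21.6% of them beside 15.3% and 16.5% of all genes. At day 3 against day 1, 4 rose and 7 fell (10.8% and 18.9%, beside 18.2% and 19.0% of all genes), and at day 5 against day 3, 8 rose and 0 fell (21.6% and 0%, beside 10.3% and 6.33%). At day 7 against day 5, 1 member rose and 15 fell, and these 40.5% that fell stand beside 5.02% of all genes, with 2.7% and 5.32% for rises. At day 10 against day 7, 2 rose and 3 fell (5.41% and 8.11%, beside 4.17% and 3.50% of all genes), and at day 14 against day 10, 0 rose and 3 fell (0% and 8.11%, beside 1.64% and 2.11% of all genes). At day 28 against day 14, 10 members rose and 2 fell (27.0% and 5.41%, beside 7.96% and 7.78% of all genes). In this fit of all days the largest differences from the shares of all genes were the falls between days 5 and 7 and the rises between days 14 and 28. Fits on the compared days alone gave other numbers: 13 fell at day 1 against day 0, 2 rose at day 5 against day 3, 5 fell and 0 rose at day 7 against day 5, and 10 fell and 5 rose at day 10 against day 7. Beside the 0 that fell at day 5, edgeR had 0 members and DESeq2 had 1, CCND1, lower at an unadjusted p under 0.05, and DESeq2 called 0. Beside the 0 that rose at day 14, edgeR and DESeq2 each had 2 at an unadjusted p under 0.05, RB1 and RBL2, and DESeq2 called 0, while a fit on those days alone called 2.

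**Figure D3:**
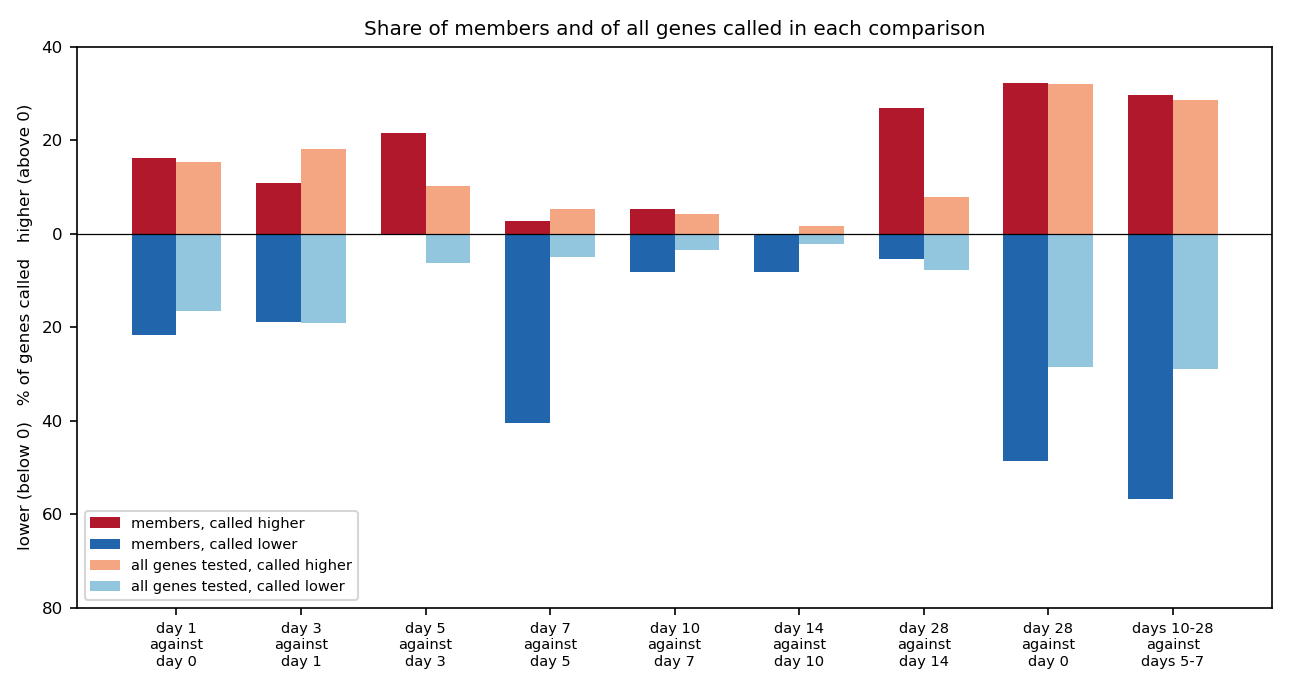
Percent of the 37 members and of all 22245 genes tested that were called higher (bars above 0) or lower (bars below 0) in each of 9 comparisons of days. The members that fell at day 7 against day 5 reach 40.5%, against 5.02% of all genes.

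Several of these counts rest on single libraries. For day 1 against day 0, 2 members rose without any one of day 0 replicate 1 or 2 or day 1 replicate 1 or 3. The members that fell there were 4, 5 and 3 when day 0 replicate 2, day 1 replicate 1 or day 1 replicate 3 was left out. For day 5 against day 3, 5 rose without day 3 replicate 1 and 4 without day 5 replicate 3. When day 5 replicate 1 was left out 1 fell, and when day 5 replicate 2 was left out 6 fell. For day 7 against day 5, 6 fell without day 7 replicate 2 and 9 without day 7 replicate 3. In that step 0 rose without day 5 replicate 1 or any replicate of day 7, and 3 rose without day 5 replicate 2. For day 10 against day 7, 1 rose without day 7 replicate 2 or either replicate of day 10. Leaving out day 10 replicate 1 left 0 that fell, and leaving out day 10 replicate 2 left 1. In these fits day 10 is 1 library, which is assumed to vary like the libraries of the other days, so they show little of the stability of these calls. For day 14 against day 10, 1 fell without either replicate of day 10 or without day 14 replicate 1 or 3, and 5 fell without day 14 replicate 2. For day 28 against day 14, 5 rose without day 14 replicate 1 and 6 without day 28 replicate 3. There 0 fell without day 28 replicate 3, and 1 fell without any 1 of the other 5 libraries. Of the 131 calls of a member in a comparison, 82 held in every fit with 1 library left out. Scaling by library totals alone kept the numbers called only at day 5 against day 3. It gave 3 higher and 8 lower at day 1 against day 0, 8 higher and 5 lower at day 3 against day 1, 2 higher and 5 lower at day 10 against day 7, and 6 higher and 2 lower at day 28 against day 14. In the other 4 comparisons it moved a number by at most 3.

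The D-type cyclins and their kinases moved apart from each other. CCND1, encoding cyclin D1 (ENSG00000110092, chr11:69641156-69654474, + strand), peaked at day 1, with 279.9, 248 and 289.8 CPM, against 111, 99.6 and 99.5 CPM at day 0 (log2 change 1.40 ± 0.27, adjusted p = 0.000366). It was lower again at day 3, with 85.4, 82.5 and 96.7 CPM (log2 change -1.63 ± 0.27, adjusted p = 3.75e-05 against day 1), and the libraries of neighbouring days did not overlap in either step. Its means were 62.6 ± 27.7, 58.4 ± 5.66, 58.9 ± 21.7 and 61.5 ± 16.8 CPM at days 5, 7, 10 and 14 (SD, n = 3, and n = 2 at day 10). At day 28 it had 130.3, 129 and 114 CPM against 44.1, 77.7 and 62.6 CPM at day 14 (log2 change 1.02 ± 0.27, adjusted p = 0.00868). The CCND1 call at day 28 against day 14 ended without day 14 replicate 1, at adjusted p = 0.0639. Cyclin D1 was thus highest on a single early day and next highest on the last.

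CCND2, encoding cyclin D2 (ENSG00000118971, chr12:4269771-4305353, + strand), fell at day 3, to 151, 112 and 231 CPM, against 440.3, 624 and 381 CPM at day 1 (log2 change -1.55 ± 0.33, adjusted p = 0.000627). At day 5 it had 666, 732 and 221 CPM (log2 change 1.71 ± 0.33, adjusted p = 0.000406 against day 3), and replicate 3 of day 5 lay within the range of day 3. At day 7 it had 95.7, 63.4 and 75.1 CPM (log2 change -2.79 ± 0.34, adjusted p = 2.9e-06 against day 5), the lowest level of the time course and below every library of day 5. At day 10 it had 229.9 and 234 CPM (log2 change 1.57 ± 0.36, adjusted p = 0.00729 against day 7). The CCND2 call at day 10 against day 7 ended without day 7 replicate 2 or day 10 replicate 1 or 2, at adjusted p = 0.0563, 0.0988 and 0.0635. At day 28 it had 737, 762 and 682 CPM, against 256, 354 and 239.7 CPM at day 14 (log2 change 1.36 ± 0.33, adjusted p = 0.00442), with no overlap. Cyclin D2 fell, rose, fell and rose again, and its day 28 level, though outside the range of 472 to 489 CPM at day 0, did not pass the test against that day. CCND3, encoding cyclin D3, was low throughout, and its libraries had 7.96, 6.93 and 9.94 CPM at day 1 against 18.3, 19.3 and 18.8 CPM at day 0 (log2 change -1.19 ± 0.29, adjusted p = 0.00342). Its daily means from day 3 to day 28 were between 10.0 and 18.9 CPM.

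Set per kilobase of exon, so that the genes can be compared with each other, cyclin D2 made up most of the D-type cyclin RNA on most days. Its share of the sum of the 3 genes was 70.7% ± 0.855, 50.2% ± 8.36, 39.9% ± 6.49 and 76.3% ± 0.517 on days 0, 1, 7 and 28 (SD, n = 3 each). Cyclin D1 held 48.6% at day 1 and 50.6% at day 7, and cyclin D3 reached its highest share, 9.54%, at day 7. On day 7 cyclin D1 held 42.8% to 56.8% and cyclin D2 33.9% to 46.8%, with D2 the larger in 1 of the 3 libraries. The order of their day 7 means turned with raw CPM, not divided by length, which gave 39.3% for cyclin D1 and 51.7% for cyclin D2. On days 0 and 28 cyclin D2 held the larger share in every library.

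**Figure D4:**
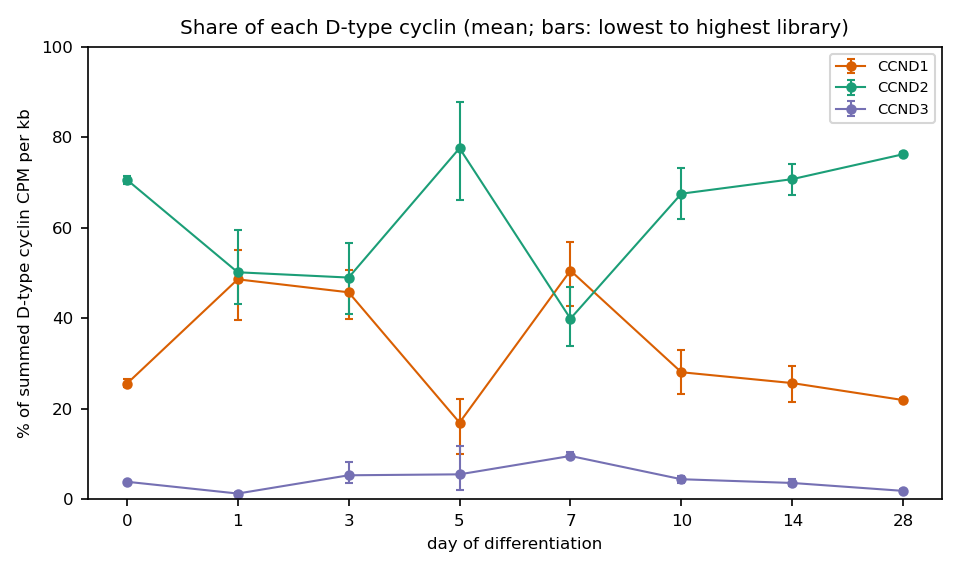
Share of the summed CPM per kilobase of the 3 D-type cyclins held by each of them (vertical axis, percent) on each day, with bars from the lowest to the highest library. The share of CCND2 is 39.9% at day 7 and 76.3% at day 28.

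CDK6 (ENSG00000105810, chr7:92604921-92836573, - strand), a kinase partner of the D-type cyclins, fell at day 1 and then rose. It had 4.41, 6.10 and 4.67 CPM at day 1, against 23.1, 29.4 and 22.8 CPM at day 0 (log2 change -2.30 ± 0.48, adjusted p = 0.000938). At day 3 it had 205, 109 and 43.6 CPM (log2 change 4.55 ± 0.52, adjusted p = 2.05e-07 against day 1), all far above day 1 but spread widely among themselves. No later step passed the test, with means of 159 ± 147, 116 ± 22.4, 144 ± 40.7 and 281 ± 30.5 CPM at days 5, 7, 10 and 14. At day 28 it had 364, 332 and 457 CPM, 15.3-fold above day 0 (log2 change 3.94 ± 0.50, adjusted p = 2.15e-07). The other kinase of the D-type cyclins, CDK4, went the other way, with 24.6, 35.9 and 32.9 CPM at day 28 against 111, 110.5 and 109 CPM at day 0 (log2 change -1.82 ± 0.29, adjusted p = 5.26e-06). CDK4 had its highest mean, 183 ± 40.5 CPM, at day 1 and fell at day 7 against day 5 (-0.99, adjusted p = 0.0211 on the log2 scale). The CDK4 call at day 7 against day 5 ended without day 5 replicate 3 or day 7 replicate 1 or 2, at adjusted p = 0.13, 0.122 and 0.123. The kinases that share the D-type cyclins thus changed in opposite directions over the time course, with no overlap between days 28 and 0 for either.

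**Figure D5:**
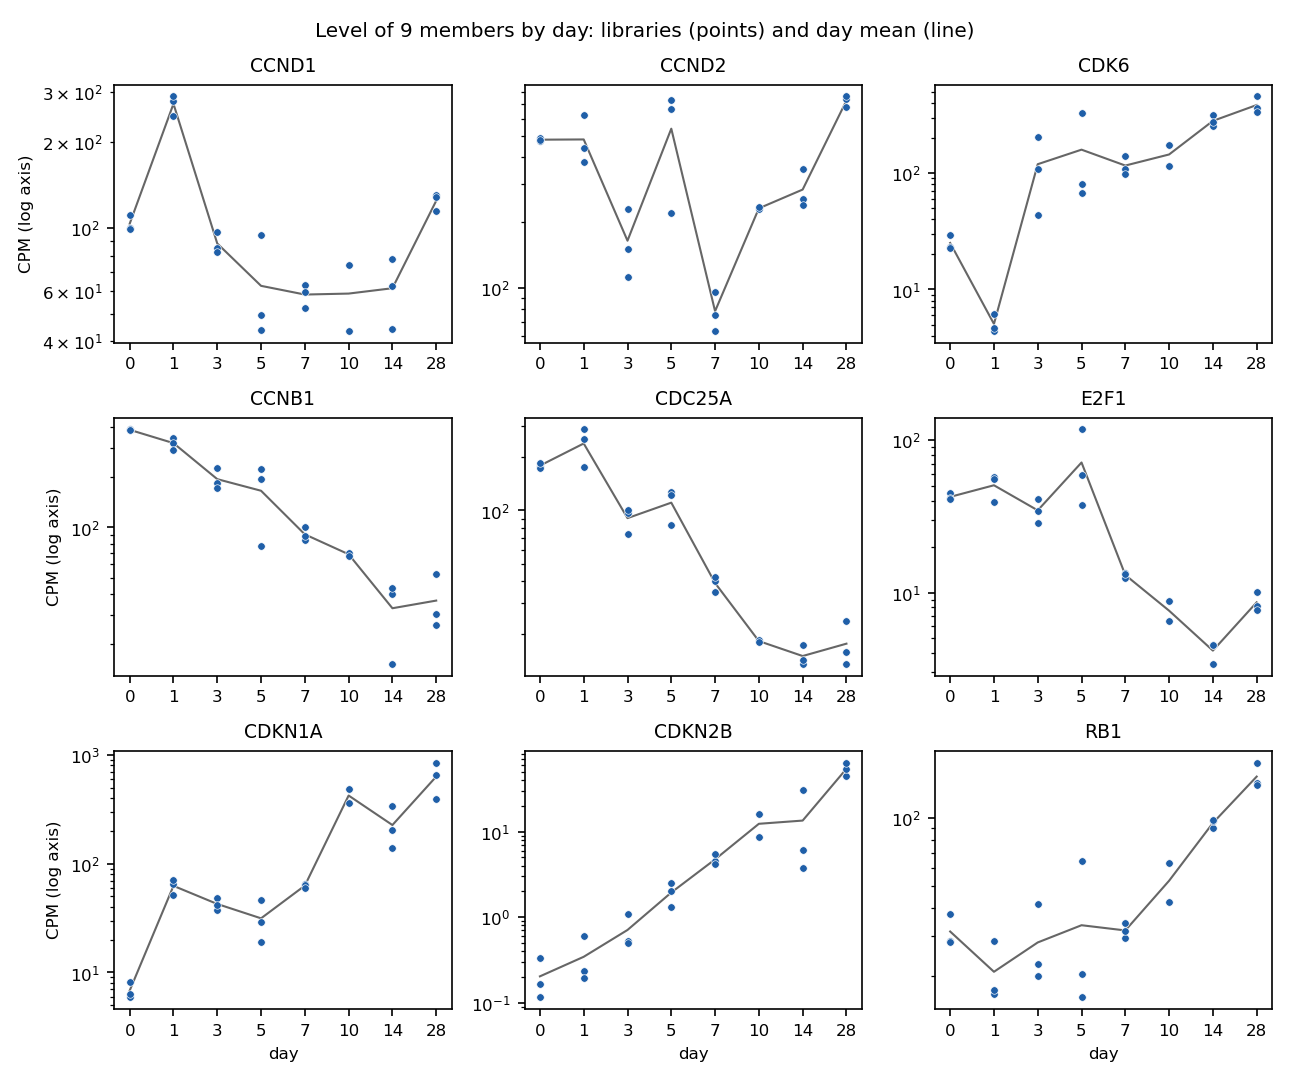
CPM on a log axis (vertical) of 9 members by day (horizontal, days evenly spaced), with 1 point per library and a line through the daily means. CDKN1A and CDKN2B end far above their day 0 values, while CCNB1, CDC25A and E2F1 end below theirs.

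Among the E- and A-type cyclins and CDK2, which act at the start of and through S phase, 3 of 5 fell by day 28 and 0 rose. These are 60% and 0%, beside 28.4% and 32.1% of all genes tested. CCNE1, encoding cyclin E1, had 9.02, 9.74 and 9.52 CPM at day 28 against 70.9, 66.0 and 65.5 CPM at day 0, 7.15-fold lower (log2 change -2.84 ± 0.22, adjusted p = 4.37e-11). Its largest step between neighbouring days was at day 3, with 20.5, 27.8 and 29.0 CPM at day 3 against 89.0, 63.9 and 94.97 CPM at day 1 (log2 change -1.68 ± 0.21, adjusted p = 7.29e-07). It fell again at day 10, with 12.3 and 9.92 CPM against 22.6, 22.4 and 22.9 CPM at day 7 (log2 change -1.03 ± 0.25, adjusted p = 0.011). The CCNE1 call at day 10 against day 7 ended without day 10 replicate 1 or 2, at adjusted p = 0.0737 and 0.0944. Between these falls cyclin E1 rose at day 5, with 43.3, 33.7 and 47.2 CPM against 20.5, 27.8 and 29.0 CPM at day 3 (log2 change 0.68 ± 0.21, adjusted p = 0.0234). The CCNE1 call at day 5 against day 3 ended without day 3 replicate 1 or day 5 replicate 1 or 3, at adjusted p = 0.145, 0.0657 and 0.0554. CCNA2, encoding cyclin A2, had 21.9, 18.6 and 38.7 CPM at day 28 against 233, 243 and 233 CPM at day 0 (log2 change -3.16 ± 0.40, adjusted p = 1.78e-07). Its means were 117 ± 35.3, 101 ± 35.2, 108 ± 52.0, 43.1 ± 1.52, 45.2 ± 1.12 and 25.9 ± 13.6 CPM at days 1, 3, 5, 7, 10 and 14. CCNA1, the cyclin A of the germ line, was sparse, with 0.0739, 0 and 0 CPM at day 28 against 2.24, 2.12 and 2.25 CPM at day 0. It had 1 count in all at day 28 against 125 at day 0, which puts day 0 higher by a ratio of 88.8 with a 95% counting interval of 15.7 to 3534 (edgeR adjusted p = 9.28e-07). CCNA1 had already fallen at day 1, with 0.927, 0.634 and 0.259 CPM (log2 change -1.82 ± 0.50, adjusted p = 0.00822 against day 0). The CCNA1 call at day 1 against day 0 ended without day 1 replicate 3, at adjusted p = 0.0593. CCNE2, encoding cyclin E2, had 11.1, 10.6 and 7.63 CPM at day 3 against 3.25, 4.10 and 3.37 CPM at day 1 (log2 change 1.45 ± 0.28, adjusted p = 0.000216). INTS8, which overlaps it, holds 22619 counts in all libraries against 1678 for CCNE2. CDK2, the kinase of this group, had daily means between 21.4 CPM at day 14 and 57.4 CPM at day 1, and 33.1 ± 1.21 CPM at day 28 against 39.5 ± 1.98 CPM at day 0, which did not pass the test.

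The mitotic cyclins and CDK1 were all lower at day 28 than at day 0. CCNB1, encoding cyclin B1 (ENSG00000134057, chr5:69167135-69178245, + strand), had 30.3, 26.0 and 52.9 CPM at day 28 against 388, 383 and 386 CPM at day 0, 10.6-fold lower (log2 change -3.41 ± 0.37, adjusted p = 1.65e-08). Its daily means were 321, 195, 166, 90.9, 69.0 and 32.7 CPM on days 1, 3, 5, 7, 10 and 14, and none of the steps between neighbouring days passed the test by itself. CCNB2, encoding cyclin B2 (ENSG00000157456, chr15:59105126-59125045, + strand), had 13.2, 12.8 and 20.8 CPM at day 28 against 116, 119 and 126 CPM at day 0 (log2 change -2.94 ± 0.32, adjusted p = 1.76e-08). It fell at day 14, with 6.88, 16.3 and 18.3 CPM against 47.2 and 37.6 CPM at day 10 (log2 change -1.62 ± 0.34, adjusted p = 0.00791). The CCNB2 call at day 14 against day 10 ended without day 10 replicate 1, at adjusted p = 0.0612. CDK1 (ENSG00000170312, chr10:60778331-60794852, + strand), the mitotic kinase, had 28.0, 22.7 and 39.7 CPM at day 28 against 165, 180.3 and 144 CPM at day 0 (log2 change -2.44 ± 0.32, adjusted p = 3.68e-07). It was lower at day 1, with 67.8, 80.4 and 67.3 CPM (log2 change -1.18 ± 0.31, adjusted p = 0.00542 against day 0), and higher again at day 3, with 185, 133 and 116 CPM (log2 change 1.01 ± 0.31, adjusted p = 0.0114 against day 1). The CDK1 call at day 3 against day 1 ended without day 3 replicate 1, at adjusted p = 0.0535. CDK1 thus dipped at day 1, where cyclins B1 and B2, with 321 ± 26.3 and 128 ± 9.37 CPM, did not pass the test against day 0. At day 14 replicate 1 had the lowest value of its day for CCNA2, CCNB1, CCNB2 and CDK1, and at day 28 replicate 3 had the highest for these 4 genes. CDKN3, a phosphatase that acts on CDKs, fell with them, to 5.66 ± 1.76 CPM at day 28 against 31.1 ± 1.41 CPM at day 0 (log2 change -2.45 ± 0.29, adjusted p = 7.79e-08).

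The promoters of 6 members that fell by day 28 are shown because they hold, close to the start, the letters of the elements known to control cell cycle genes: the CCAAT box bound by NF-Y, the E2F element and the cell cycle homology region (CHR) bound by MuvB complexes. Each stretch is from the RefSeq annotation of GRCh38.p14, reads 5′ to 3′ on the gene's strand and ends 1 to 21 bases before an annotated start. Capitals mark the letters CCAAT on either strand, E2F matches (the form TTCCCGC, the form TTCGCGC, the form TTGCCGC or the form TTGGCGC, on either strand) and CHR matches (the form TTTGAA or the form TTCGAA, on either strand).
CCNB1 promoter, chr5:69167008-69167134, + strand: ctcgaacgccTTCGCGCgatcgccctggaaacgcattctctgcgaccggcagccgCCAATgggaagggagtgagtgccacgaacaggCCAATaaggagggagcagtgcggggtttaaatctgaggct
CCNB2 promoter, chr15:59105016-59105125, + strand: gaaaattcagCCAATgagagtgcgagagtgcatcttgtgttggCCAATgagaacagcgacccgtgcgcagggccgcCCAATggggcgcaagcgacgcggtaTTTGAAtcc
CDK1 promoter, chr10:60778160-60778330, + strand: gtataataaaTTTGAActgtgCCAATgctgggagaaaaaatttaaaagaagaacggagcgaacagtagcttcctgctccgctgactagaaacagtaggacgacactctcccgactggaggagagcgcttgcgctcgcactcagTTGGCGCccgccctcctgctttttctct
CDC25A promoter, chr3:48188418-48188537, - strand: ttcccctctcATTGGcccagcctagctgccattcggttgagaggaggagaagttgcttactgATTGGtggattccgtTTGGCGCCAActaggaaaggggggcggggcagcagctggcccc
E2F1 promoter, chr20:33686386-33686574, - strand: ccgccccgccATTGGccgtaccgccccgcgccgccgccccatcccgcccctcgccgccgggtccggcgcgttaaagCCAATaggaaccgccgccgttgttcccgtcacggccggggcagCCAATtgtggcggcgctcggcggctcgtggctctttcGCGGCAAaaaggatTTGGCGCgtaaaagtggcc
E2F7 promoter, chr12:77065570-77065755, - strand: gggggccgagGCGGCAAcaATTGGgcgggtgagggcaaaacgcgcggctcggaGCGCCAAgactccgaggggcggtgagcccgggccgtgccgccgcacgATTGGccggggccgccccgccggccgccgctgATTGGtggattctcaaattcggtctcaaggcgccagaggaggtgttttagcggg
The CCNB2 stretch holds 3 CCAAT boxes and then 1 CHR, CDK1 holds 1 of each of the 3 kinds, and CCNB1 holds 2 CCAAT boxes and 1 E2F match. CDC25A, with 2 CCAAT boxes, and E2F1 and E2F7, with 3 each, hold 2 E2F matches each, and the 2 of CDC25A overlap each other on opposite strands. No matches of different kinds overlapped. Windows from 250 bases before to 50 after a start were found for 28 of the 37 members, 43 windows in all, and were searched on both strands. An E2F match was in 32.6% of these windows and in 13.0% of all 35116 windows, CCAAT in 46.5% and 34.6%, CHR in 20.9% and 16.4%, and CHR together with CCAAT in 18.6% and 6.38%. Some windows of the same gene overlap, as for CDK1 and CDC25C, so a site can count more than once. By gene, E2F matches were in 12 of the 28 members, CCAAT in 16, CHR in 7 and CHR together with CCAAT in 6. The 6 stretches were chosen for their matches, and the matches did not separate members that fell from members that rose. CDKN1B, which rose by day 28, held 3 CCAAT matches, and a window of CDKN2C, which also rose, held 2 E2F matches. The windows of CCNE1, CDK4 and E2F4, which fell, held 0 of the 3 kinds. These are letter matches and not measured binding.

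The CIP/KIP inhibitors all rose by day 28, and CDKN1A did so most. CDKN1A (ENSG00000124762, chr6:36676460-36687337, + strand) encodes p21, which binds and inhibits cyclin-CDK complexes. It had 649, 847 and 397 CPM at day 28 against 5.91, 6.36 and 8.19 CPM at day 0, 92.5-fold higher (log2 change 6.53 ± 0.40, adjusted p = 6.04e-13). The first rise came at day 1, with 65.5, 51.3 and 70.8 CPM at day 1 (log2 change 3.19 ± 0.35, adjusted p = 1.68e-07 against day 0). At day 10 it had 363 and 483 CPM against 65.7, 63.0 and 59.8 CPM at day 7 (log2 change 2.75 ± 0.36, adjusted p = 3.63e-05). At day 28 it was also above day 14, which had 202, 339 and 139 CPM (log2 change 1.48 ± 0.32, adjusted p = 0.00177). The libraries did not overlap in any of these 4 comparisons, and all 4 calls held with any 1 library left out. Between them it had 42.6 ± 5.71 CPM at day 3 and 31.4 ± 13.8 CPM at day 5, and it rose at day 7 against day 5 (1.02, adjusted p = 0.0454 on the log2 scale). The CDKN1A call at day 7 against day 5 ended without any one of day 5 replicate 1 or 2 or day 7 replicate 1, 2 or 3, at adjusted p = 0.129, 0.0576, 0.0869, 0.0842 and 0.0703.

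CDKN1C, encoding p57, an imprinted gene, peaked in the middle of the time course. It had 54.1, 32.8 and 78.5 CPM at day 5 against 13.7, 22.02 and 17.8 CPM at day 3 (log2 change 1.62 ± 0.32, adjusted p = 0.000641), with no overlap. Its highest means were 77.3 ± 5.45 CPM at day 7 and 86.8 ± 19.9 CPM at day 10. At day 28 it had 22.4, 26.0 and 10.6 CPM against 37.7, 55.6 and 35.8 CPM at day 14 (log2 change -1.13 ± 0.32, adjusted p = 0.0158). The CDKN1C call at day 28 against day 14 ended without day 14 replicate 2 or day 28 replicate 3, at adjusted p = 0.117 and 0.133. Its day 28 libraries were still above those of day 0, which had 7.27, 5.70 and 5.54 CPM (log2 change 1.67 ± 0.33, adjusted p = 0.000108). CDKN1B, encoding p27, changed least of the 3, with 76.3, 78.2 and 54.7 CPM at day 28 against 28.8, 31.4 and 29.4 CPM at day 0 (log2 change 1.22 ± 0.23, adjusted p = 5.91e-05). None of its steps between days passed the test. The inhibitors of this family thus had their highest means on different days: p57 and p27 at day 10 and p21 at day 28.

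All 4 INK4 inhibitors were low at day 0 and rose by day 28. CDKN2B, encoding p15 (ENSG00000147883, chr9:22002903-22009305, - strand), had 44.6, 54.5 and 64.1 CPM at day 28 against 0.164, 0.330 and 0.115 CPM at day 0 (log2 change 7.95 ± 0.67, adjusted p = 2.03e-10), the largest change of the 37 members. Its mean was higher on each later day, with 0.344 ± 0.227, 0.708 ± 0.330, 1.94 ± 0.585, 4.74 ± 0.672, 12.4 ± 5.24 and 13.5 ± 14.9 CPM on days 1, 3, 5, 7, 10 and 14. Of the steps, only that of day 28 against day 14, with 3.72, 30.7 and 6.06 CPM at day 14, passed the test (log2 change 2.01 ± 0.47, adjusted p = 0.00328), and it held with any 1 library left out. CDKN2D, encoding p19, had 2.52, 2.72 and 7.95 CPM at day 5 against 0.755, 1.25 and 0.301 CPM at day 3 (log2 change 2.33 ± 0.46, adjusted p = 0.000589). It had 7.02, 8.65 and 4.33 CPM at day 28 against 1.47, 3.10 and 2.78 CPM at day 14 (log2 change 1.45 ± 0.40, adjusted p = 0.0143) and 1.31, 1.93 and 1.38 CPM at day 0 (log2 change 2.10 ± 0.39, adjusted p = 5.69e-05). The CDKN2D call at day 28 against day 14 ended without day 14 replicate 1 or day 28 replicate 2, at adjusted p = 0.0815 and 0.0622. CDKN2A, whose transcripts encode p16 and ARF and cannot be separated in gene counts, had 1.03, 1.47 and 0.721 CPM at day 28 against 0.109, 0 and 0.173 CPM at day 0. That is 43 counts at day 28 against 5 at day 0, a ratio of 12.1 with a counting interval of 4.81 to 39.2 (edgeR adjusted p = 0.000363). CDKN2B-AS1, which shares 593 exon bases with CDKN2A on the other strand, had 127 counts at day 28 against 1 at day 0. Its part in the CDKN2A values was not tested. CDKN2A also passed the test at day 1, with 0.309, 0.244 and 0.864 CPM (log2 change 2.19 ± 0.84, adjusted p = 0.0493 against day 0). The CDKN2A call at day 1 against day 0 ended without any one of day 0 replicate 1 or 2 or day 1 replicate 1 or 3, at adjusted p = 0.0885, 0.18, 0.0652 and 0.26. CDKN2C, encoding p18, had 1.33, 1.00 and 1.08 CPM at day 28 against 0.0547, 0 and 0.0577 CPM at day 0. That is 46 counts at day 28 against 2 at day 0, a ratio of 32.4 with an interval of 8.47 to 275 (edgeR adjusted p = 3.25e-05). These intervals cover counting error only. CDKN2A and CDKN2C stayed near 1 CPM at day 28, where CDKN2B had 54.4 ± 9.72 CPM (SD, n = 3).

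All 3 activator E2Fs, which turn on replication genes, fell by day 28. E2F1 had 8.13, 7.73 and 10.0 CPM at day 28 against 45.0, 41.6 and 41.0 CPM at day 0 (log2 change -2.30 ± 0.30, adjusted p = 3.56e-07). Its sharpest step was at day 7, with 13.5, 12.4 and 13.2 CPM against 58.9, 37.8 and 118 CPM at day 5 (log2 change -2.44 ± 0.31, adjusted p = 3.55e-06), which held with any 1 library left out. The preceding rise of day 5 over the 28.5, 41.4 and 34.2 CPM of day 3 (log2 change 1.03 ± 0.29, adjusted p = 0.0122) had overlapping libraries. The E2F1 call at day 5 against day 3 ended without day 3 replicate 1 or day 5 replicate 3, at adjusted p = 0.0667 and 0.189. E2F2 took the same steps, with 23.1, 10.3 and 44.7 CPM at day 5 against 7.95, 10.4 and 10.2 CPM at day 3 (log2 change 1.42 ± 0.39, adjusted p = 0.0124, overlapping). The E2F2 call at day 5 against day 3 ended without day 3 replicate 1 or day 5 replicate 3, at adjusted p = 0.0576 and 0.158. It had 4.71, 7.83 and 8.09 CPM at day 7 (log2 change -1.86 ± 0.41, adjusted p = 0.00334 against day 5) and 0.517 and 2.01 CPM at day 10 (log2 change -2.43 ± 0.57, adjusted p = 0.00964 against day 7). The E2F2 call at day 10 against day 7 ended without day 10 replicate 1, at adjusted p = 0.189. At day 28 E2F2 had 2.26 ± 1.31 CPM against 11.7 ± 0.966 CPM at day 0 (log2 change -2.36 ± 0.42, adjusted p = 3.36e-05). E2F3 fell less, with 34.9 ± 5.47 CPM at day 28 against 85.1 ± 1.74 CPM at day 0 (log2 change -1.28 ± 0.25, adjusted p = 0.000107). None of its steps between neighbouring days passed the test.

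The repressor E2Fs divided. E2F7 and E2F8 are close relatives that repress E2F targets, and they ended on opposite sides of their day 0 levels. E2F7 had 6.06, 4.40 and 9.88 CPM at day 28 against 46.8, 48.5 and 47.5 CPM at day 0 (log2 change -2.81 ± 0.37, adjusted p = 4.45e-07), and its lowest libraries were 1.35, 4.29 and 3.28 CPM at day 14. E2F8 (ENSG00000129173, chr11:19224063-19241620, - strand) had 33.2, 30.9 and 41.5 CPM at day 28 against 13.5, 15.7 and 14.9 CPM at day 0 (log2 change 1.26 ± 0.27, adjusted p = 0.000289), with no overlap. The E2F8 rise came after a low at day 3, with 11.1, 17.5 and 8.44 CPM at day 5 against 6.49, 4.28 and 4.82 CPM at day 3 (log2 change 1.26 ± 0.29, adjusted p = 0.00244). E2F8 lies upstream of CSRP3, a muscle gene on the same strand (chr11:19182030-19210571), whose mean was 1427 CPM at day 28 against 0.0182 CPM at day 0. CSRP3 shares no exon bases with E2F8. The antisense gene CSRP3-AS1 shares 7 exon bases with E2F8 and had 4.32 CPM at day 28 against 0.0496 CPM at day 0, and its part in the E2F8 values was not tested. E2F4, which with pocket proteins represses cell cycle genes in resting cells, had 39.6 ± 5.00 CPM at day 28 against 91.0 ± 5.77 CPM at day 0 (log2 change -1.20 ± 0.25, adjusted p = 0.000229) and its highest mean, 155 ± 34.9 CPM, at day 1. E2F5 had 18.6, 18.8 and 17.1 CPM at day 28 against 33.5, 25.6 and 32.2 CPM at day 14 (log2 change -0.74 ± 0.22, adjusted p = 0.0193). The E2F5 call at day 28 against day 14 ended without day 14 replicate 1 or 3 or day 28 replicate 1, 2 or 3, at adjusted p = 0.109, 0.0939, 0.0605, 0.065 and 0.104. Against day 0, which had 62.5 ± 2.00 CPM, E2F5 was lower in every fit (log2 change -1.78 ± 0.22, adjusted p = 1.4e-07). E2F6, which represses without pocket proteins, had daily means between 17.4 and 30.1 CPM. It was not called by the test over all days.

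Of the pocket proteins, RB1 and RBL2 rose and RBL1 did not pass the test at day 28 against day 0. RB1 (ENSG00000139687, chr13:48303744-48599436, + strand), the retinoblastoma protein gene, had 141, 139 and 175 CPM at day 28 against 28.6, 37.6 and 28.3 CPM at day 0, 4.82-fold higher (log2 change 2.27 ± 0.37, adjusted p = 9.99e-06). Its means were 33.6 ± 26.5, 31.8 ± 2.41, 52.7 ± 14.4 and 94.7 ± 3.87 CPM at days 5, 7, 10 and 14, and no step between neighbouring days passed the test. RBL2, encoding p130, the pocket protein of resting cells, had 77.3, 79.9 and 87.6 CPM at day 28 against 30.1, 33.4 and 29.9 CPM at day 0 (log2 change 1.39 ± 0.30, adjusted p = 0.000306). Its day 14 libraries were already at 90.4, 81.7 and 78.3 CPM. RBL1, encoding p107, itself a known E2F target, had 17.2 ± 4.93 CPM at day 28 against 7.77 ± 1.09 CPM at day 14 (log2 change 1.14 ± 0.33, adjusted p = 0.017). The RBL1 call at day 28 against day 14 ended without day 14 replicate 1 or day 28 replicate 3, at adjusted p = 0.0687 and 0.107. At day 0 RBL1 had 21.3 ± 3.20 CPM. RB1 and RBL2 thus had higher means at days 14 and 28 than on any other day. Cyclins A2, B1, B2 and E1 and E2F3 had lower means on these days than on any other. The other activator E2Fs, E2F1 and E2F2, and the repressor E2F7 did not, with higher means at day 28 than at day 10. Day 28 was not tested against day 10.

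The CDC25 phosphatases fell and the opposing kinases split. CDC25A (ENSG00000164045, chr3:48157146-48188417, - strand), which activates CDK2 and CDK1 complexes, had 13.6, 15.8 and 23.6 CPM at day 28 against 178, 173 and 186 CPM at day 0, 10.1-fold lower (log2 change -3.34 ± 0.26, adjusted p = 5.53e-11). It fell at day 3, with 73.5, 97.0 and 101 CPM against 253, 177 and 287 CPM at day 1 (log2 change -1.40 ± 0.24, adjusted p = 7.13e-05). It fell again at day 7, with 40.0, 34.6 and 42.1 CPM against 127, 82.8 and 122 CPM at day 5 (log2 change -1.51 ± 0.25, adjusted p = 0.000147), and both falls held with any 1 library left out. At day 10 it had 18.6 and 18.0 CPM (log2 change -1.09 ± 0.29, adjusted p = 0.019 against day 7). The CDC25A call at day 10 against day 7 ended without day 7 replicate 3 or day 10 replicate 1 or 2, at adjusted p = 0.0561, 0.17 and 0.0913. CDC25C, the mitotic phosphatase, had 3.92, 2.94 and 5.19 CPM at day 28 against 42.3, 40.6 and 43.5 CPM at day 0 (log2 change -3.39 ± 0.37, adjusted p = 1.49e-08). Its overlapping neighbour FAM53C had a mean of 71.6 CPM at day 28 against 94.2 CPM at day 0. CDC25C had 1.47, 8.35 and 5.30 CPM at day 14 against 14.0 and 13.2 CPM at day 10 (-1.44, adjusted p = 0.0396 on the log2 scale). The CDC25C call at day 14 against day 10 ended without day 10 replicate 1 or 2 or day 14 replicate 1 or 3, at adjusted p = 0.123, 0.192, 0.115 and 0.0893. CDC25B differed from both in peaking at day 5, with 52.6, 39.4 and 121 CPM against 23.9, 36.4 and 30.7 CPM at day 3 (log2 change 1.22 ± 0.29, adjusted p = 0.00348). The CDC25B call at day 5 against day 3 ended without day 5 replicate 3, at adjusted p = 0.0593. CDC25B had 11.2, 12.5 and 10.2 CPM at day 14 against 24.4 and 32.4 CPM at day 10 (-1.33, adjusted p = 0.0215 on the log2 scale). The CDC25B call at day 14 against day 10 ended without day 10 replicate 2 or day 14 replicate 1 or 3, at adjusted p = 0.195, 0.0569 and 0.0696. Its fall at day 28 against day 0 (-0.81, adjusted p = 0.0184) ended without day 0 replicate 3 or day 28 replicate 2 or 3, at adjusted p = 0.0707, 0.0736 and 0.0719.

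WEE1 (ENSG00000166483, chr11:9573670-9593457, + strand), the nuclear kinase that inhibits CDK1 and CDK2, rose in a single step. It had 367, 347 and 367 CPM at day 28 against 107, 140.2 and 112 CPM at day 14 (log2 change 1.59 ± 0.22, adjusted p = 1.13e-05) and 140.3, 145 and 137 CPM at day 0 (log2 change 1.36 ± 0.22, adjusted p = 1e-05). On all earlier days its means were between 88.5 and 141 CPM, and no other step passed the test. PKMYT1, the membrane-bound kinase that inhibits CDK1, fell instead, with 3.10, 3.01 and 1.87 CPM at day 28 against 22.1, 21.1 and 25.3 CPM at day 0 (log2 change -3.10 ± 0.36, adjusted p = 5.94e-08). Its libraries had 6.67, 7.95 and 7.99 CPM at day 7 against 21.0, 12.7 and 42.0 CPM at day 5 (log2 change -1.70 ± 0.35, adjusted p = 0.00165), with no overlap. Both kinases add inhibitory phosphates to CDK1, and at day 28 they stood on opposite sides of their day 0 levels.

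The remaining calls between neighbouring days were mostly smaller. At day 1 against day 0, the falls of CCNA2 (-1.02 on the log2 scale) and CDKN3 (-0.80) and the rises of CDK2 (0.54) and CDK4 (0.73) each ended without any one of day 0 replicate 1, 2 or 3 or day 1 replicate 1 or 3, with adjusted p of 0.0575 to 0.154. E2F4 also rose (0.77), and RBL1 (10.6 CPM at day 1 against 21.3 CPM at day 0) and E2F8 (-0.93) fell. These calls ended without day 0 replicate 2 or day 1 replicate 3, those of E2F4 and RBL1 also without day 1 replicate 1 and that of E2F4 without day 0 replicate 1, with adjusted p of 0.0545 to 0.105. At day 3 against day 1, E2F4 fell (log2 change -1.13 ± 0.25, adjusted p = 0.00102) in every fit. CDK2 (-0.61) and PKMYT1 (-0.83, with overlapping libraries) fell, and RBL2 (0.92) rose. Each of the 3 ended without day 1 replicate 1 or 3 or day 3 replicate 1, CDK2 also without day 3 replicate 2 and PKMYT1 without day 3 replicate 3, with adjusted p of 0.0643 to 0.23.

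At day 7 against day 5, the falls of CCND2, E2F1, E2F2, PKMYT1, CDC25A and CDKN3 (-1.29, adjusted p = 0.00415) held in every fit with 1 library left out. The other falls, on the log2 scale, were those of CCNA2 (-1.33), CDC25C (-1.33), E2F7 (-1.29), CDK1 (-1.26), CDC25B (-1.17), RBL1 (-1.02), CDK4, CCNE1 (-0.86) and CDK2 (-0.79). CCNA2, E2F7 and RBL1 lost their calls without day 5 replicate 2 or any replicate of day 7, with adjusted p of 0.052 to 0.376. CDK2 lost its call without day 5 replicate 1 or any replicate of day 7, and CDC25C without day 5 replicate 1 or day 7 replicate 2 or 3, with adjusted p of 0.0521 to 0.0827. CDK1 lost its call without day 7 replicate 2 or 3, CDC25B without day 5 replicate 3 or day 7 replicate 2, and CCNE1 without day 7 replicate 2, with adjusted p of 0.0554 to 0.0857. The libraries of days 7 and 5 overlapped for none of the 15 that fell, and 84.7% of all genes that fell in this step had no overlap. In these same libraries the cardiomyocyte markers had a summed level of 10728 to 13132 CPM at day 7 against 1606 to 3797 CPM at day 5, and the proliferation markers 1208 to 1321 CPM at day 7 against 2979 to 3259 CPM at day 5. Markers of other cells also moved, and their part in the falls was not tested. Of all genes tested, 5.32% rose and 5.02% fell in this step. The smooth muscle and epicardial sum was 985 to 1077 CPM at day 7 against 300.2 to 514 CPM at day 5, with 2 of 6 genes higher and 2 lower. The endothelial sum was 157 to 186 CPM at day 7 against 83.4 to 103 CPM at day 5, with 2 of 4 genes higher. Lower medians were seen for fibroblast and stroma markers, at 812 to 1519.8 CPM at day 7 against 1441 to 2327 CPM at day 5 with overlap, where 2 of 6 fell. The pluripotent markers summed to 1183 to 1281 CPM at day 7 against 1724 to 3667 CPM at day 5, with 1 of 5 genes higher and 2 lower. At day 28 against day 14, E2F7 (1.19, adjusted p = 0.0433), E2F1 (1.06, adjusted p = 0.024) and CDK2 (0.63, adjusted p = 0.032) also rose. E2F7 and E2F1 lost their calls without day 14 replicate 1 or day 28 replicate 3, E2F7 also without day 14 replicate 3 or day 28 replicate 1, and CDK2 without any 1 of the 6 libraries, with adjusted p of 0.0521 to 0.245.

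Markers of cells other than cardiomyocytes differed in the libraries of day 28 against day 14, where 10 members rose. Of all genes tested, 7.96% rose and 7.78% fell in this step. Of the fibroblast and stroma markers 5 of 6 rose, with a summed level of 2788 to 3236 CPM at day 28 against 361 to 604 CPM at day 14. The collagen gene COL3A1 had 2217 CPM at day 28 against 260.2 CPM at day 14 (log2 change 3.09 ± 0.48, adjusted p = 4.12e-05). Of the smooth muscle and epicardial markers 4 of 6 rose (1225 to 1892 CPM at day 28 against 128 to 288 CPM at day 14), while 4 of 6 endoderm and liver markers fell (113 to 276 CPM at day 28 against 469 to 2977 CPM at day 14). Of 7 cardiomyocyte markers 2 rose and 1 fell (28389 to 42474 CPM at day 28 against 20954 to 21784 CPM at day 14), and of 4 endothelial markers 1 rose and 2 fell (23.6 to 38.5 CPM at day 28 against 35.1 to 43.9 CPM at day 14). The 4 neural markers summed to 2.88 to 4.51 CPM at day 28 against 3.28 to 3.50 CPM at day 14. These shifts moved with the rises of CCND1, CCND2, CDKN1A, CDKN2B and WEE1, and their part in them was not tested.

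The days labelled Cardiomyocyte were also set together against the days labelled Cardiac progenitors. In this comparison 21 members fell, 56.8% of them against 28.9% of all genes tested, and 11 rose, 29.7% against 28.7%, so the share that rose was again close to that of all genes. The median log2 change was -0.64 over the members and 0.01 over all genes. CDKN1A ranged over 139 to 847 CPM with a median of 379.7 in the 8 libraries of days 10, 14 and 28, against 19.0 to 65.7 CPM with a median of 52.97 in the 6 of days 5 and 7 (log2 change 3.15 ± 0.24, adjusted p = 5.74e-11). No library of either group lay within the range of the other for CDKN1A. CDKN2B ranged over 3.72 to 64.1 CPM with a median of 23.4 in the 8 libraries of days 10, 14 and 28, against 1.32 to 5.50 CPM with a median of 3.35 in the 6 of days 5 and 7 (log2 change 2.79 ± 0.36, adjusted p = 5.93e-07), with some overlap. CDKN2A ranged over 0 to 1.47 CPM with a median of 0.616 in the 8 libraries of days 10, 14 and 28, against 0 to 0.588 CPM with a median of 0.130 in the 6 of days 5 and 7 (log2 change 1.79 ± 0.66, adjusted p = 0.0241). CDKN2A lost its call without any one of day 5 replicate 1, day 7 replicate 2 or 3, day 10 replicate 1 or day 14 replicate 2, at adjusted p = 0.0628, 0.0654, 0.0742, 0.0526 and 0.102. Of these 3 inhibitors, p21 alone had every cardiomyocyte library above every progenitor library.

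On the falling side of that comparison, E2F2 ranged over 0.517 to 3.75 CPM with a median of 1.17 in the 8 libraries of days 10, 14 and 28, against 4.71 to 44.7 CPM with a median of 9.20 in the 6 of days 5 and 7 (log2 change -3.30 ± 0.31, adjusted p = 3.43e-09). PKMYT1 ranged over 1.87 to 5.20 CPM with a median of 2.61 in the 8 libraries of days 10, 14 and 28, against 6.67 to 42.0 CPM with a median of 10.3 in the 6 of days 5 and 7 (log2 change -2.27 ± 0.24, adjusted p = 2.78e-08). Neither gene overlapped between the groups. CCNA1 ranged over 0 to 0.354 CPM with a median of 0 in the 8 libraries of days 10, 14 and 28, against 0 to 0.841 CPM with a median of 0.440 in the 6 of days 5 and 7 (log2 change -2.48 ± 0.67, adjusted p = 0.00292), with libraries at 0 in both groups. CCNE2 (-1.16, adjusted p = 1.48e-05), CCND3 (-0.49, adjusted p = 0.0363), CDKN1C (-0.64, adjusted p = 0.0119) and E2F3 (-0.39, adjusted p = 0.0495) also fell. CCND2 (0.82, adjusted p = 0.00252), CDK6 (0.88, adjusted p = 0.0156), E2F6 (0.51, adjusted p = 0.00888) and CDKN1B (0.36, adjusted p = 0.045) rose, all with overlapping libraries. Not every day of a group followed these directions. CDKN1C had means of 55.1 and 77.3 CPM at days 5 and 7 but 86.8 CPM at day 10. CCND2 had 540 CPM at day 5 against 232 and 283 CPM at days 10 and 14. E2F6 was not called by the test over all days. Some of these calls rested on single libraries. CCND3 lost its call without any one of day 5 replicate 3, day 7 replicate 1, day 10 replicate 1 or day 28 replicate 3, at adjusted p = 0.163, 0.0521, 0.123 and 0.0501. E2F3 lost it without day 5 replicate 1 or 2, day 10 replicate 2 or day 28 replicate 2, at adjusted p = 0.0676, 0.271, 0.128 and 0.0648. CDK6 lost it without day 5 replicate 1, day 7 replicate 3 or day 10 replicate 1, at adjusted p = 0.0571, 0.0553 and 0.0689, and E2F6 lost it without day 7 replicate 2 or day 10 replicate 2, at adjusted p = 0.0567 and 0.0563. CDKN1B kept its call without day 5 replicate 2 or day 28 replicate 3 only, and without each of the other 12 libraries its adjusted p was 0.0963 to 0.211. The falls of CDK4, CCNE1, CCNA2, CCNB1, CCNB2, CDK1, CDKN3, E2F1, E2F4, E2F5, E2F7 and the 3 CDC25 genes and the rises of E2F8, RB1, RBL2 and WEE1 held in every fit with 1 library left out.

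In 4 lists of cell cycle genes outside the set, most of the genes that passed the test at day 28 against day 0 were lower. Of all genes tested, 28.4% fell and 32.1% rose in this comparison. All 11 proliferation markers fell at day 28 against day 0, with a median log2 change of -2.47 beside 0.09 over all genes. The helicase subunit MCM5 had 40.6 CPM at day 28 against 473 CPM at day 0 (log2 change -3.54 ± 0.34, adjusted p = 2.24e-09). Of 10 E2F partners and MuvB, MYB and FOXM1 factors, 4 fell and 2 rose (40% and 20%). MYBL2, which drives mitotic genes with MuvB, had 12.9 CPM at day 28 against 199.7 CPM at day 0 (log2 change -3.95 ± 0.41, adjusted p = 6.83e-09), and FOXM1 had 9.16 CPM at day 28 against 96.2 CPM at day 0 (log2 change -3.39 ± 0.35, adjusted p = 7.2e-09). The MuvB subunits LIN9 (1.98, adjusted p = 4.2e-07 on the log2 scale) and LIN37 (2.25, adjusted p = 6.17e-05) rose. MYBL2 and FOXM1, which activate mitotic genes, thus fell where LIN9 and LIN37, subunits of the core complex, rose. No other gene of this list rose, and 4 of the 10 did not pass the test. Of 14 ubiquitin ligase, checkpoint and mitotic kinase genes 10 fell and 2 rose (71.4% and 14.3%). CDC20, the mitotic activator of the anaphase-promoting complex, was at -4.22, adjusted p = 2.42e-09 and AURKB at -4.00, adjusted p = 1.42e-09. Of 16 other cyclins, CDKs and CDK subunits 7 fell and 3 rose (43.8% and 18.8%), with CKS2 at -3.28, adjusted p = 4.36e-12 and CDK14 at 1.50, adjusted p = 0.000423.

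Some proliferation markers shared the dip of CDK1 at day 1. At day 1 against day 0, 3 of the 11 fell and 0 rose (27.3% and 0%, beside 16.5% and 15.3% of all genes). TOP2A, the replication and mitosis topoisomerase, had 122 CPM at day 1 against 645 CPM at day 0 (log2 change -2.40 ± 0.49, adjusted p = 0.000766). At day 3 against day 1, TOP2A (1.73, adjusted p = 0.00659 on the log2 scale) and MKI67 (1.62, adjusted p = 0.0133) rose and 5 markers fell. These are 18.2% and 45.5% of the markers, beside 18.2% and 19.0% of all genes. Among those that fell were MCM4 (-1.36, adjusted p = 0.000155), MCM5 (-1.35, adjusted p = 0.00156) and MCM7 (-1.33, adjusted p = 0.000737). At that step CDK1 rose and CCNE1 and CDC25A fell. At day 7 against day 5, 8 of 11 proliferation markers and 8 of 14 ligase, checkpoint and mitotic kinase genes fell and 0 of either list rose. The falls are 72.7% and 57.1% of these lists, beside 5.02% of all genes, and 5.32% of all genes rose. MCM5 was at -1.61, adjusted p = 0.00119 and AURKB at -1.41, adjusted p = 0.00682. At day 28 against day 14, 2 of 11 proliferation markers rose and 0 fell (18.2% and 0%, beside 7.96% and 7.78% of all genes). MCM5 had 40.6 CPM at day 28 against 14.9 CPM at day 14 (log2 change 1.45 ± 0.33, adjusted p = 0.00255), and PCNA had 78.7 CPM at day 28 against 36.3 CPM at day 14 (log2 change 1.12 ± 0.26, adjusted p = 0.0031). E2F1, RBL1 and these replication genes thus had higher means at day 28 than at day 14. The calls of E2F1 and RBL1 each ended without day 14 replicate 1 or day 28 replicate 3. The sum of all 11 proliferation markers overlapped between the days, with 631 to 1122 CPM at day 28 against 435 to 649 CPM at day 14. Cyclins A2, B1 and B2 had 26.4 ± 10.8, 36.4 ± 14.5 and 15.6 ± 4.51 CPM at day 28 against 25.9 ± 13.6, 32.7 ± 15.3 and 13.8 ± 6.10 CPM at day 14 and did not pass the test.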

How the data were processed

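Per the labels, total RNA of H1-hESC cells was depleted of ribosomal RNA, made into stranded libraries and sequenced in pairs on a NextSeq. Per the series' design text and the submitters' processing notes, the authors trimmed reads with Trim Galore 0.65 to 50 bases, aligned them with STAR 2.7.0 to GRCh38/hg38 with GENCODE v38 and counted genes with HTSeq, whose strand setting is not given in the sources used here. The notes speak of CPM and length normalization, but the deposited table holds raw counts, which were used. Symbols, coordinates and exon lengths came from GENCODE v44 by gene ID, which holds 56387 of the 57477 IDs, and 44 copies of genes on the Y pseudoautosomal regions were left out. Counts were scaled with TMM, filtered with filterByExpr (minimum count 10) and fitted across all 23 libraries with day as a factor in edgeR 4.0.16 (R 4.3.3, robust quasi-likelihood F-test). The SE is the log2 change divided by the square root of F. Adjusted p are Benjamini-Hochberg values over the 22245 genes tested, called under 0.05. The fit was tested on simulated counts.

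Libraries were grouped by labelled day. The members and lists were chosen with earlier results of these data known. All 37 members were accounted for. Library values were given for 19 members chosen by name (CCNA2, CCNB1, CCND1, CCND2, CCND3, CCNE1, CDK1, CDK6, CDKN1A, CDKN1C, CDKN2A, CDKN2B, CDKN2C, E2F1, E2F7, RB1, RBL2, CDC25A and WEE1) and for the 3 largest called rises and falls of each comparison, and of each list up to 3 called genes a direction could be named. Other library values were given where they help to show a pattern and were chosen after they were seen. Alternatives were DESeq2 1.42.0, other scalings, no low-count filter, a replicate block, fits on the compared days alone, each library left out and other exon lengths. Promoter windows were RefSeq's, and no 2 libraries of the same day agreed within sampling noise (lowest chi-square per degree of freedom 3.09). Libraries of different days were not compared in this way. A further gene list is not reported here.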

Additional observations from a re-analysis of the deposited data

How the results depend on the processing

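No call of a member reversed under any alternative. Of the 131 calls, DESeq2 kept 130, scaling by relative log expression (RLE) 127, the replicate block 127, no low-count filter 117, library totals alone 116 and fits on the compared days alone 104, with 24 lost and the rest not fitted. Library totals alone shifted the median log2 change of all genes by 0.23 at day 3 against day 1, 0.15 at day 7 against day 5, -0.18 at day 10 against day 7, -0.21 at day 28 against day 14, -0.12 at day 28 against day 0 and -0.13 for cardiomyocyte against progenitor days. With these totals 3 members rose at day 1, 8 rose at day 3, 5 fell at day 10 and 6 rose at day 28 against day 14. With no filter 3 rose at day 1, 2 rose at day 7, 5 fell at day 14 and 1 fell at day 28 against day 14. On the compared days alone 13 fell at day 1, 2 rose at day 5, 0 rose and 5 fell at day 7, 5 rose and 10 fell at day 10 and 2 rose at day 14. With the replicate block 0 rose at day 7. Replicate numbers were not shown to pair libraries: over 77 pairs of libraries with 1 number on different days, the deviations from the day means correlated at -0.464 to 0.651 with a median of -0.00188, and 7 of 23 libraries were closest to their own number. With 1 library left out, members that rose and fell numbered 2 to 9 and 3 to 8 at day 1 against day 0, 3 to 5 and 5 to 8 at day 3 against day 1, 4 to 10 and 0 to 6 at day 5 against day 3, and 0 to 3 and 6 to 17 at day 7 against day 5. They numbered 1 to 2 and 0 to 3 at day 10 against day 7, 0 to 0 and 1 to 5 at day 14 against day 10, 5 to 9 and 0 to 1 at day 28 against day 14, 11 to 12 and 17 to 18 at day 28 against day 0, and 8 to 11 and 20 to 22 for cardiomyocyte against progenitor days. Between 35 and 37 members differed between any days. With day 7 as the sole progenitor day, an alternative chosen after the data were seen, 26 of 32 calls held. The share of CCND2 in D-type cyclin RNA was 75.4% at day 28 and 68.5% at day 0 with the longest transcript's length. With raw CPM it was 79.7%, 62.5%, 51.7% and 84.2% on days 0, 1, 7 and 28. With 1 library left out it was 70.3% to 71.1%, 45.5% to 53.6%, 36.5% to 42.9% and 76.0% to 76.5% on these days. Depth limits CDKN2A, CDKN2C and CCNA1, each with 5 counts or fewer on the lower of days 28 and 0.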
